A study of Homo sapiens with 7 samples.

Results

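CDH1, ESRP1, ESRP2, GRHL2, CDH2, ZEB1, ZEB2, VIM, SNAI1 and SNAI2 are regulators and markers of the epithelial and mesenchymal states of cells, and their promoter contacts were examined in 3 human cancer cell lines. The 10 genes were chosen by name from 20163 protein-coding genes. A loop was assigned to a gene when either of its anchors, the regions joined by the loop, overlapped a window of 500 bp centred on any annotated start site of the gene (GENCODE, GRCh37). By this rule 284 of 354783 loops belonged to the 10 genes, 50 of 163530 in Ishikawa, 29 of 42027 in T-47D and 205 of 149226 in LNCaP.

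H3K27ac HiChIP, which enriches chromatin contacts for DNA carrying acetylated lysine 27 of histone H3, a mark of active promoters and enhancers, was performed in Ishikawa (endometrial adenocarcinoma), T-47D (ductal carcinoma of the breast) and LNCaP (prostate carcinoma). Ishikawa cells were given either DMSO as the vehicle (2 samples) or 17β-estradiol at 10 nM (2 samples) for 1 h, and the deposited list combines all 4. The T-47D list comes from 1 sample and the LNCaP list from 2 samples, for which the labels name no treatment. The labels give RPMI medium with fetal bovine serum for every line, while the methods of the study describe hormone-depleted medium before estrogen induction, so for the treated Ishikawa cells the medium may also have differed. Every group is an established line, so a difference between lists is a difference between these lines as cultured and treated. Chromatin was cut with DpnII in Ishikawa and MboI in T-47D and LNCaP. By the methods of the study, Ishikawa samples were also sequenced more deeply than the others. Medium, enzyme, shearing, read length and sequencing depth cannot be told apart from the cell line in comparisons with Ishikawa. The same holds for the estradiol given to 2 of the Ishikawa samples.

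Epithelial cells adhere to each other through E-cadherin, the product of CDH1. GRHL2 is a transcription factor that maintains the epithelial programme, and ESRP1 and ESRP2 are RNA-binding proteins that direct epithelial splicing. ZEB1, ZEB2, SNAI1 and SNAI2 encode transcription factors that repress CDH1 during the epithelial to mesenchymal transition by binding E-box letters, and CDH2 (N-cadherin) and VIM (vimentin) are classical markers of the mesenchymal state.

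The lists held 1040329 read pairs in loops for Ishikawa, 351260 for T-47D and 1805322 for LNCaP. The lowest count of a loop was 3 in each list, so 0 below means that no loop was listed. In Ishikawa the minimum of 3 held for each row of 4 separately sorted blocks, before their counts were summed. A contact under 3 read pairs in every block is thus missing there. The study also removed loops with a high false discovery rate. A fold given as at least, with 3 read pairs in place of 0, is therefore a bound for listed loops only. Where Ishikawa held the 0, the 3 is the minimum within a block and not that of the sum. Anchors had a median width of 5.1 kb for Ishikawa, 2.61 kb for T-47D and 3.23 kb for LNCaP, and a wider anchor covers a start site more readily. All 9 line markers examined, among them PAX8 for Ishikawa, GATA3 for T-47D and KLK3 for LNCaP, had their highest percentile of promoter read pairs in the list of their own line. However, 1 marker of LNCaP was almost as high in the Ishikawa list, at a percentile of 98.5 against 99. With 1 list per line there is no replicate error, and intervals are exact 95% intervals that cover counting error only.

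In sum, the 4 epithelial genes carried most of the contacts. In LNCaP all 4 had promoter loops, with 5128 read pairs in sum, whereas the 6 mesenchymal genes had 88 read pairs in sum and 4 of the 6 had a loop. In Ishikawa the sums were 173 read pairs over 4 of 4 epithelial genes and 93 over 3 of 6 mesenchymal genes. In T-47D they were 217 read pairs over 3 of 4 epithelial genes and 9 over 2 of 6 mesenchymal genes. Single genes led these sums, with 3447 of the 5128 from GRHL2 in LNCaP and 178 of the 217 from ESRP2 in T-47D. In Ishikawa the mesenchymal CDH2, with 76, lay above CDH1 (22), ESRP2 (10) and GRHL2 (38) and below ESRP1 (103). Among all protein-coding genes, a promoter loop was present for 57.3% in the Ishikawa list, 49.2% in the T-47D list and 58.1% in the LNCaP list. The median percentile of read pairs, counted among the protein-coding genes of the same list with ties at their middle, was 76.8 (Ishikawa), 70.8 (T-47D) and 97.7 (LNCaP) for the epithelial genes and 36.7, 25.4 and 45.4 for the mesenchymal genes, where 25.4 is the level of all genes without a loop in T-47D.

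**Figure D1:**
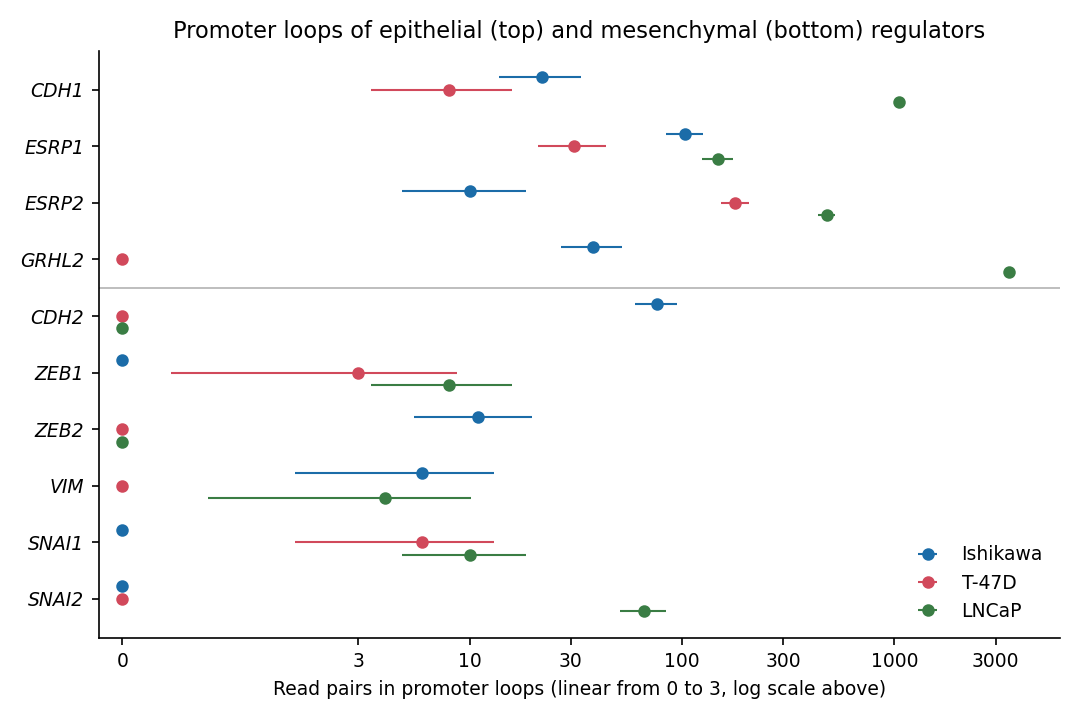
Read pairs in promoter loops of each gene (horizontal axis, linear from 0 to 3 and log scale above) in Ishikawa, T-47D and LNCaP, with exact 95% Poisson intervals for values above 0. GRHL2 and CDH1 in LNCaP, at 3447 and 1055 read pairs, lie farthest to the right, and CDH2 and ZEB2 have a point above 0 in Ishikawa only.

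CDH1 lies on chromosome 16 with its main start site, that of the canonical transcript, at 68771195 on the plus strand. It had 22 read pairs in 6 loops in Ishikawa (95% interval 13.8 to 33.3), 8 in 2 loops in T-47D (3.45 to 15.8) and 1055 in 58 loops in LNCaP (992 to 1121). LNCaP was thus far above both other lists. Scaled to 1000000 read pairs in the list (RPM), the levels were 21.1, 22.8 and 584, which placed CDH1 at percentiles of 71.8, 61.3 and 99 among protein-coding genes. LNCaP exceeded Ishikawa by 27.6-fold (18.2 to 44.3) and T-47D by 25.7-fold (13 to 59.6). With the 30 kb window, a setting added after the data were seen, these folds were 15.8 and 15.3. Between Ishikawa and T-47D the order turned with the scaling: T-47D was 1.08-fold higher in RPM, with an interval of the ratio of Ishikawa to T-47D of 0.415 to 2.51, and Ishikawa was 2.75-fold higher when each list was divided by its median gene, taken over genes with 10 or more read pairs in both lists. The loops of T-47D did not touch the main start site. They left an anchor at chr16:68834066-68835693 over an internal start site, and the T-47D anchor nearest to the main start site was 16.3 kb away, a distance reached or passed by 37% of protein-coding genes in that list.

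In LNCaP 991 of the 1055 read pairs left the anchor over the main start site. The strongest linked distal anchors, meaning anchors joined to the promoter that hold no protein-coding promoter themselves, were at +18.7 kb with 238 read pairs, at −5.13 kb with 175 and at +41.7 kb with 137, where plus is downstream of the main start site. The anchors at +18.7 kb and +41.7 kb lay in CDH1 introns, and that at −5.13 kb lay between genes. The region at −5.13 kb overlapped the Ishikawa anchor over the main start site, which is not counted as distal. In all, 25 distal anchors were linked to CDH1 in LNCaP (15 in introns, 7 over exons, 3 between genes) against 5 in Ishikawa and 2 in T-47D. The intronic anchor at +18.7 kb was linked in every list, with 238 read pairs in LNCaP and 3 in each other list, and that at +41.7 kb in T-47D with 5 read pairs and in LNCaP. The promoters with the most read pairs to CDH1 were that of TANGO6 in LNCaP with 47 and that of WWP2 in Ishikawa with 3, and none was joined in T-47D. A further 41 read pairs in LNCaP joined CDH1 to CDH3, the neighbouring P-cadherin gene.

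**Figure D2:**
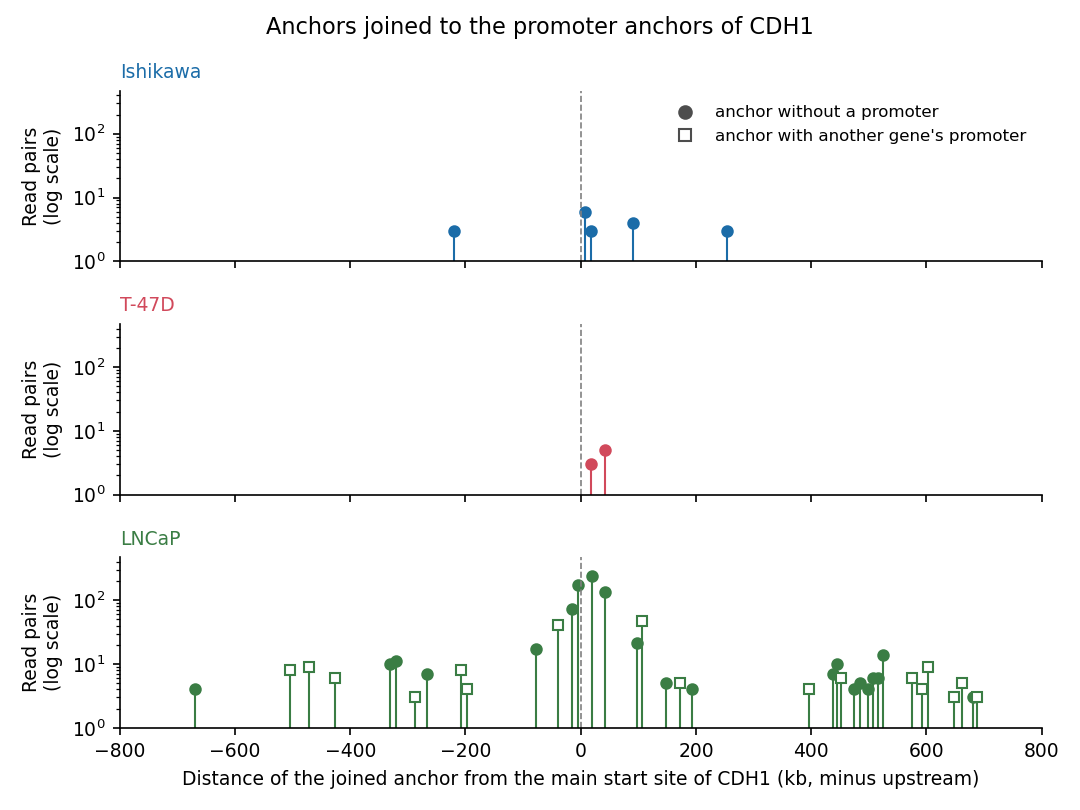
Anchors joined to the promoter anchors of CDH1 within 800 kb, by distance from the main start site (kb, minus upstream) and read pairs (log scale), in Ishikawa, T-47D and LNCaP; filled circles hold no promoter and open squares hold the promoter of another gene. The LNCaP panel peaks at 238 read pairs at +18.7 kb, and no anchor passes 6 read pairs in the other panels.

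ESRP2 lies 501 kb from CDH1, with its main start site at 68270030 on the minus strand of chromosome 16. It had 10 read pairs in 3 loops in Ishikawa (4.8 to 18.4), 178 in 19 loops in T-47D (153 to 206) and 479 in 45 loops in LNCaP (437 to 524). Both T-47D and LNCaP were above Ishikawa, and T-47D had the highest RPM level. The RPM levels were 9.61, 507 and 265, so T-47D exceeded Ishikawa by 52.7-fold (28 to 112), LNCaP exceeded Ishikawa by 27.6-fold (14.9 to 57.9) and T-47D exceeded LNCaP by 1.91-fold (1.6 to 2.27). Divided by the median gene, the same folds were 17.8, 16.5 and 1.2. With the 30 kb window, where Ishikawa had 24 read pairs, they were 25.1, 12.7 and 1.98. ESRP2 was joined mainly to other promoters in T-47D and LNCaP, where 141 of 178 and 294 of 479 read pairs went to anchors with promoters of other genes, against 3 of 10 in Ishikawa. The leading partner was SLC7A6 in T-47D with 39 read pairs, PLA2G15 in LNCaP with 57 and DUS2 in Ishikawa with 3.

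ESRP2 and CDH1 were the only pair among the 10 genes joined to each other, by 1 loop of 8 read pairs in LNCaP. In that list they also shared 5 linked distal anchors, which held 270 read pairs to CDH1 and 31 to ESRP2. The sums were uneven. The anchor in a CDH1 intron at +18.7 kb from the CDH1 start held 238 of the 270 but 3 of the 31. An anchor in a DUS2 intron held 4 of the 270 and 16 of the 31. The surroundings of both genes were dense. Loops within 2 Mb that did not touch the gene's own promoter held, relative to the mean of the list per Mb, 2.02 times as many read pairs around CDH1 in Ishikawa, 3.94 times in T-47D and 4.49 times in LNCaP, and around ESRP2 1.94, 3.28 and 4.61 times. Ishikawa had the lowest surroundings of both genes, and the part of the surroundings in the result was not tested. Each gene's loops count among the surroundings of the other. Among the 107 protein-coding genes within 2 Mb of CDH1, CDH1 ranked 2 by read pairs in LNCaP, 35 in Ishikawa and 64 in T-47D. ESRP2 ranked 5, 53 and 5 of 104 in the same order.

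GRHL2 had the most promoter read pairs of the 10 genes in LNCaP and none in T-47D. Its main start site is at 102504667 on the plus strand of chromosome 8. It had 38 read pairs in 9 loops in Ishikawa (26.9 to 52.2), 0 in T-47D and 3447 in 74 loops in LNCaP (3333 to 3564). The LNCaP value ranked 16 of 20163 protein-coding genes. At 1909 RPM it was 52.3-fold (38 to 74) above Ishikawa, at 36.5. Against T-47D, with 3 read pairs put in place of 0, it was at least 224-fold higher. This bound counts listed loops only and leaves out loops removed for few reads or a high false discovery rate.

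The T-47D list was not empty around GRHL2. It held 7 anchors within 200 kb of the main start site, and 25 loops with 306 read pairs touched this interval. Of the 7 anchors, 6 lay over regions that LNCaP joined to GRHL2, among them −54.9 kb with 196 read pairs in T-47D and −132 kb with 84. The nearest anchor, centred at +11.8 kb with 39 read pairs, lay 10.6 kb from the start site and inside the LNCaP anchor over the GRHL2 start, which was 26.7 kb wide. With a window of 30 kb in place of 500 bp, GRHL2 had 39 T-47D, 57 Ishikawa and 3447 LNCaP read pairs. T-47D was then 2.03-fold above Ishikawa in RPM, against at least 4.28-fold below it with the 500 bp window, and LNCaP was 17.2-fold above T-47D and 34.8-fold above Ishikawa. The Ishikawa count was 13 in place of 38 without the fourth of the 4 sorted blocks of that list, and GRHL2 was then no longer called above T-47D.

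In LNCaP 44 distal anchors were linked to GRHL2, more than to 99.9% of protein-coding genes. The strongest were at +86.2 kb with 935 read pairs, at −84.1 kb with 370 and at +113 kb with 284. Both downstream anchors lay within GRHL2 and the upstream anchor lay between genes, as did 26 of the 44. Within 200 kb of the start site lay 20 of the 44 anchors with 2988 of their 3168 read pairs. Of the 8 distal anchors in Ishikawa, 4 overlapped distal anchors of LNCaP, at −55.5, −15.9, +48.7 and +612 kb, with 3 to 6 read pairs each in Ishikawa. The leading promoter partner in LNCaP was YWHAZ with 40 read pairs, and Ishikawa had none. Other loops within 2 Mb were 1.77 times the list mean in Ishikawa, 2.47 times in T-47D and 2.09 times in LNCaP.

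**Figure D3:**
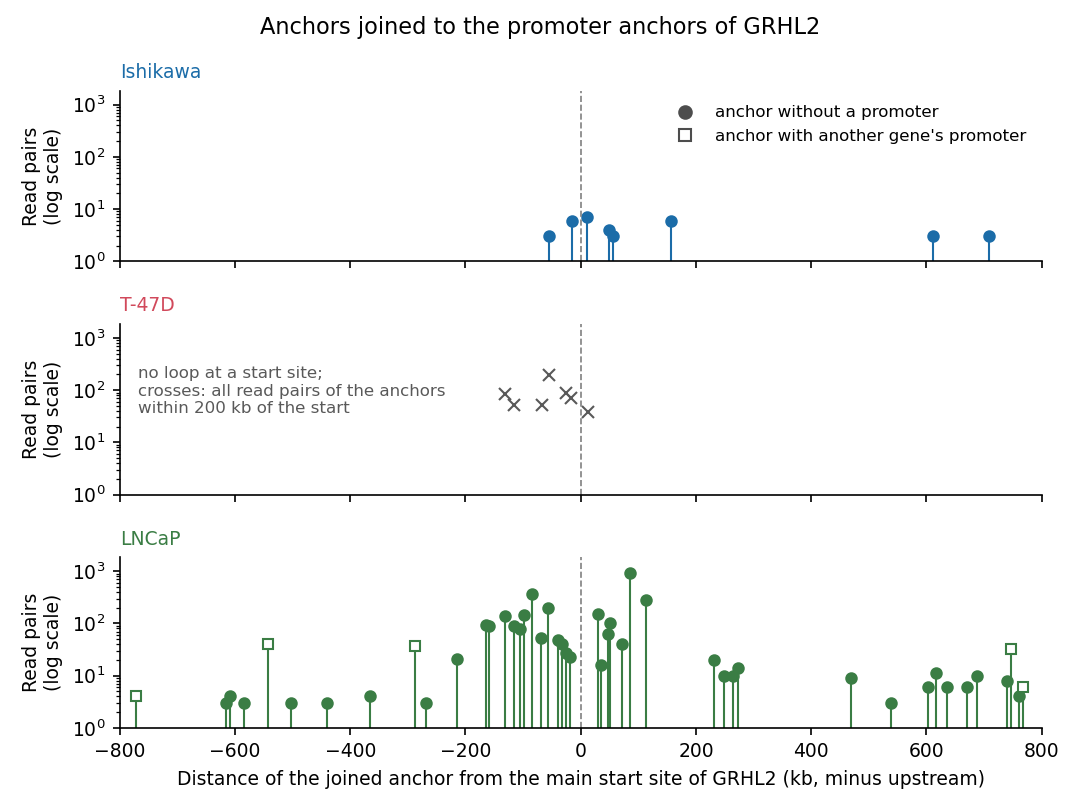
Anchors joined to the promoter anchors of GRHL2 within 800 kb, by distance from the main start site (kb, minus upstream) and read pairs (log scale). Filled circles hold no promoter, open squares hold the promoter of another gene, and in T-47D, where no loop met a start site, crosses give all read pairs of the 7 anchors within 200 kb; LNCaP reaches 935 read pairs at +86.2 kb, and Ishikawa stays at 7 or fewer.

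ESRP1 had similar RPM levels in the lists, which held for this scaling and for all start sites together. Its main start site is at 95653402 on the plus strand of chromosome 8. It had 103 read pairs in 15 loops in Ishikawa (84.1 to 125), 31 in 5 loops in T-47D (21.1 to 44) and 147 in 15 loops in LNCaP (124 to 173). The RPM levels were 99, 88.3 and 81.4, and the 3 intervals of the ratios between lists all held 1: 0.744 to 1.73 for Ishikawa over T-47D, 0.936 to 1.57 for Ishikawa over LNCaP and 0.711 to 1.61 for T-47D over LNCaP. In Ishikawa ESRP1 ranked 1 of the 23 protein-coding genes within 2 Mb, but only 25 of its 103 read pairs left the anchor over the main start site, and 91 touched an anchor over a downstream start site in the gene. In T-47D and LNCaP all its read pairs left the main start site. Divided by the median gene, Ishikawa was 3.32-fold above T-47D and 2.04-fold above LNCaP. At the main start site alone, Ishikawa was instead 3.67-fold below T-47D and 3.39-fold below LNCaP in RPM. The strongest distal anchors lay at +11.2 kb with 27 read pairs in Ishikawa, at −27.7 kb with 7 in T-47D and at +16.5 kb with 19 in LNCaP. Ishikawa and LNCaP shared those at about +12 kb and −13 kb, with 27 and 17 and with 8 and 16 read pairs. The leading promoter partner was VIRMA in Ishikawa with 3 and in LNCaP with 15, and DPY19L4 in T-47D with 12, at +78.8 kb. The anchors with promoters of other genes took 3 of 103 read pairs in Ishikawa, 24 of 31 in T-47D and 69 of 147 in LNCaP, and the median span of a loop was 35.1 kb, 166 kb and 171 kb.

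CDH2 and ZEB2 had promoter loops in Ishikawa and none in the other lists. CDH2, on chromosome 18 with its main start site at 25757094 on the minus strand, had 76 read pairs in 14 loops in Ishikawa (59.9 to 95.1), 0 in T-47D and 0 in LNCaP. The level of 73.1 RPM was at least 8.55-fold above T-47D and at least 44-fold above LNCaP, with 3 read pairs in place of 0. It rested on 5 anchors, and only 16 of the 76 read pairs left the main start site; the others left internal start sites. Counted at the main start site alone, CDH2 was no longer called against T-47D but still called against LNCaP. Of its 8 distal anchors, 6 lay within CDH2, the strongest at +144 kb with 21 read pairs. ZEB2, on chromosome 2 at 145277686 on the minus strand, had 11 read pairs in 2 loops in Ishikawa (5.49 to 19.7), 0 in T-47D and 0 in LNCaP, none of them at the main start site. Its ratio to LNCaP was at least 6.36, and that to T-47D was at least 1.24 and not called. The ZEB2 count rested on few rows. Without the first of the 4 sorted blocks of the Ishikawa list it was 4 and without the second 7. In both cases the call against LNCaP was lost. With all lists thinned to the shallowest total, ZEB2 had 0 read pairs in Ishikawa too. With the 30 kb window it had 37 in Ishikawa and 0 in the other lists. Ishikawa was then at least 4.16-fold above T-47D and at least 21.4-fold above LNCaP.

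T-47D and LNCaP held 0 anchors within 200 kb of either start site. The nearest anchor to the CDH2 start was 1411 kb away for T-47D and 1118 kb for LNCaP, distances reached by 0.795% and 0.528% of protein-coding genes. For ZEB2 it was 773 kb for T-47D and 2611 kb for LNCaP, reached by 1.9% and 0.0905%. In Ishikawa 13 loops within 200 kb of the CDH2 start held 61 read pairs and 17 loops around ZEB2 held 66. The Ishikawa surroundings were nonetheless sparse, at 0.492 and 0.269 times the list mean.

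VIM and ZEB1 were near the lowest listed counts. VIM, on chromosome 10 at 17270240 on the plus strand, had 6 read pairs in 1 loop in Ishikawa (2.2 to 13.1), 0 in T-47D and 4 in 1 loop in LNCaP (1.09 to 10.2), and the LNCaP loop joined an anchor off the main start site to the promoter of TRDMT1. The ratio of Ishikawa to LNCaP in RPM was 2.6 with an interval of 0.617 to 12.5. With the 30 kb window the order turned, as VIM had 6 read pairs in Ishikawa and 23 in LNCaP. LNCaP was then 2.21-fold higher in RPM. ZEB1, on the same chromosome at 31608145 on the plus strand, had 0 read pairs in Ishikawa, 3 in T-47D (0.619 to 8.77) and 8 in LNCaP (3.45 to 15.8). T-47D and LNCaP used the same anchor, chr10:31606409-31609243, and in both it was joined to the promoter of ZNF438, 287 kb upstream, by 3 and 5 read pairs. In Ishikawa the nearest anchor to the ZEB1 start was 53.9 kb away, as far or farther in 7.88% of protein-coding genes. VIM and ZEB1 were thus not distinguishable between lists at this depth.

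SNAI1, on chromosome 20 at 48599517 on the plus strand, had 0 read pairs in Ishikawa, 6 in 2 loops in T-47D (2.2 to 13.1) and 10 in 3 loops in LNCaP (4.8 to 18.4). T-47D and LNCaP again used the same anchor, and both joined it to a region between genes at about +37 kb, by 3 and 4 read pairs. The T-47D level, 17.1 RPM, was 3.08-fold that of LNCaP, with an interval of 0.921 to 9.36. The only promoter joined to SNAI1 was that of PEDS1, by 3 read pairs in LNCaP. The Ishikawa 0 depended on the window. The nearest Ishikawa anchor was 8.81 kb from the start site, and 45 Ishikawa loops within 200 kb held 292 read pairs. Counted with the 30 kb window, SNAI1 had 14 T-47D, 13 Ishikawa and 10 LNCaP read pairs. Ishikawa was then 2.26-fold above LNCaP in RPM. T-47D was 3.19-fold above Ishikawa and 7.2-fold above LNCaP.

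The promoter stretch of ZEB1, chr10:31607845-31608144 on the plus strand of GRCh37, is shown as that of a repressor gene whose main start site lay in an identical anchor in T-47D and LNCaP. Capitals mark CAGGTG or CACCTG, which are the same E-box, the letters bound by ZEB and SNAI proteins, read on either strand.
ZEB1, 300 bases before the start site: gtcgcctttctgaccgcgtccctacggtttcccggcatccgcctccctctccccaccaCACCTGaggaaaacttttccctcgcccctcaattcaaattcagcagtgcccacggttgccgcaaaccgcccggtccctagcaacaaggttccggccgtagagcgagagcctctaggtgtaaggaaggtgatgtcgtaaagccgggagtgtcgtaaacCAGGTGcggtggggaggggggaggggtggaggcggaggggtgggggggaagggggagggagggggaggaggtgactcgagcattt
The ZEB1 stretch held 2 E-boxes. Any E-box at all was found in 21% of 19881 promoter stretches of the same length, and the share with 2 or more was not counted. These are matches of letters only.

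The microRNAs of the miR-200 family repress ZEB1 and ZEB2 and are encoded at chromosome 1 (MIR200B, MIR200A, MIR429) and chromosome 12 (MIR200C, MIR141). Their mature sequences, from RefSeq (GRCh38.p14), fall into groups by seed, bases 2 to 8, in capitals.
miR-200a-3p: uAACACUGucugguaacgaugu
miR-141-3p: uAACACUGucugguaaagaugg
miR-200b-3p: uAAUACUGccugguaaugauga
miR-200c-3p: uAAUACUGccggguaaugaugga
miR-429: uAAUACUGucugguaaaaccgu
The first pair shared the seed AACACUG and the other 3 shared AAUACUG. Loops in the 500 bp windows of annotated hairpin starts were found at both loci in every list, although the T-47D anchor at MIR200C ended before the hairpin start. At MIR200B there were 30 Ishikawa, 79 T-47D and 148 LNCaP read pairs, or 28.8, 225 and 82 RPM, from anchors without a protein-coding promoter. T-47D and LNCaP used the same anchor there, which ended before MIR200A and MIR429. At MIR200C there were 324, 32 and 1748 read pairs, or 311, 91.1 and 968 RPM, but the Ishikawa and LNCaP anchors also held the promoters of EMG1 and PHB2, and the LNCaP anchor that of PTPN6, so these read pairs cannot be assigned to the microRNA. The start of a hairpin is not the start of its primary transcript.

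With the 500 bp window, SNAI2 had promoter loops in LNCaP only. On chromosome 8 at 49833988 on the minus strand, it had 66 read pairs in 8 loops there (51 to 84), 0 in Ishikawa and 0 in T-47D. At 36.6 RPM it was at least 12.7-fold above Ishikawa and at least 4.28-fold above T-47D, with 3 read pairs in place of 0. For Ishikawa the 3 is the minimum within a block and not that of the sum of 4 blocks. The 12.7 is therefore a weaker bound than the 4.28. With a floor of 10 read pairs SNAI2 was called against neither list. All 8 partners were distal anchors between genes on the downstream side, from +70.6 to +628 kb, with 5 to 16 read pairs each. The nearest anchor to the SNAI2 start was 1.24 kb away in Ishikawa. Ishikawa had 6 read pairs with a window of 2 kb and 9 with 30 kb, and LNCaP was then 6.34-fold and 4.23-fold higher. The nearest T-47D anchor was 912 kb away, a distance reached by 1.54% of protein-coding genes.

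Calls between lists were made by size alone: a fold of 4 or more in RPM with 10 or more read pairs in the higher list. LNCaP was higher than Ishikawa for 4 of the 8 genes with enough read pairs in either list (CDH1, ESRP2, GRHL2, SNAI2), where 40.6% of all protein-coding genes tested were called. Ishikawa was higher than LNCaP for 2 of the 8 (CDH2, ZEB2), where 25.2% of all were called. LNCaP was higher than T-47D for 3 of 6 (CDH1, GRHL2, SNAI2), with 13.5% called over all genes, and T-47D was higher than LNCaP for 0 of 6, with 19% called. T-47D was higher than Ishikawa for 1 of 6 (ESRP2), with 42.2% called, and Ishikawa was higher than T-47D for 2 of 6 (GRHL2, CDH2), with 15% called. The median log2 ratio over genes with 10 or more read pairs in both lists was −1.61 for Ishikawa over T-47D, −0.64 for Ishikawa over LNCaP and 0.87 for T-47D over LNCaP. Divided by the median gene of each list, the same members were called in every direction, while the shares over all genes became 36.1% for Ishikawa above T-47D and 27.7% for T-47D above Ishikawa, and 12.4% for T-47D above LNCaP and 20.5% for LNCaP above T-47D. The shares of members above the background rest on 6 or 8 genes, of which some passed the minimum only through the list where they were high, and no test was made. Over 21 settings of the processing, the one reported here included, CDH1, ESRP2 and GRHL2 were called higher in LNCaP than in Ishikawa in all 21, as were CDH1 and GRHL2 in LNCaP over T-47D, ESRP2 in T-47D over Ishikawa and CDH2 in Ishikawa over LNCaP. CDH2 over T-47D was called in 17 and SNAI2 in LNCaP in 19 against Ishikawa and 16 against T-47D. GRHL2 in Ishikawa over T-47D was called in 10 and ZEB2 in Ishikawa over LNCaP in 9.

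The distal regions linked to the same gene in different lists were counted. A region could be distal in 1 list and lie within the gene's promoter anchor in another, so these counts depend on anchor boundaries. Of the 37 distal anchors linked to the 10 genes in Ishikawa, 8 (21.6%) overlapped a distal anchor linked to the same gene in LNCaP and 1 (2.7%) in T-47D. Of the 107 in LNCaP, 10 (9.35%) were linked in Ishikawa and 3 (2.8%) in T-47D. Of the 8 T-47D anchors, 3 (37.5%) were linked in LNCaP and 1 (12.5%) in Ishikawa. Over all protein-coding genes the shares were 9.73% and 3.8% of Ishikawa anchors, 6.99% and 8.55% of LNCaP anchors and 29.7% and 9.19% of T-47D anchors. The regions themselves were more often present as anchors: 50 of the 107 LNCaP regions (46.7%) overlapped some anchor of the Ishikawa list and 23 (21.5%) some anchor of T-47D, 14 of them at GRHL2. Over the linked distal regions of all protein-coding genes in LNCaP these shares were 41.4% and 20.3%, close to those of the 10 genes.

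Wider lists of 30 epithelial and 30 mesenchymal genes were examined in the same way, beside the shares of 57.3%, 49.2% and 58.1% of all genes with a loop. Of the epithelial genes 28 had a promoter loop in LNCaP and 25 in each of the other lists, with median percentiles of 71.8 for Ishikawa, 80.9 for T-47D and 70.9 for LNCaP. The leading genes were KRT8 (656 read pairs), KRT18 (266) and ELF3 (105) in Ishikawa, KRT8 (307), KRT19 (296) and SPINT1 (214) in T-47D, and CLDN7 (981), CLDN4 (790) and SPINT2 (725) in LNCaP. These encode keratins, an epithelial transcription factor, tight junction claudins and inhibitors of cell surface proteases. Of the mesenchymal genes 18 had a loop in Ishikawa and 6 in each of the other lists, with median percentiles of 57.2, 25.4 and 20.9 in the same order. Ishikawa was led by the collagen gene COL5A1 (178), the actin-binding CALD1 (137) and smooth muscle actin ACTA2 (72), T-47D by ACTA2 (65), COL1A1 (58) and SNAI3 (18), and LNCaP by CALD1 (1066), ACTA2 (32) and FN1 (26). Of the 14 mesenchymal genes with enough read pairs in Ishikawa or LNCaP, 11 were higher in Ishikawa and 1 in LNCaP, against 25.2% and 40.6% over all genes. All 11 were under 10 read pairs in LNCaP, 10 of them at 0, and so passed the minimum only through Ishikawa. Of the 16 in Ishikawa or T-47D, 4 were higher in Ishikawa and 2 in T-47D, against 15% and 42.2%. All of these genes were under 10 read pairs in the lower list, and 3 of the 4 were at 0 in T-47D. For Ishikawa and LNCaP, 28 epithelial genes had enough read pairs in either list. Of these, 4 were higher in Ishikawa and 10 in LNCaP, against 25.2% and 40.6% over all genes. Of the 27 in Ishikawa or T-47D, 2 were higher in Ishikawa and 13 in T-47D, against 15% and 42.2%. The lower list held under 10 read pairs for 2 of the 4, 7 of the 10, 2 of the 2 and 8 of the 13, in that order. Between T-47D and LNCaP, 8 of 28 epithelial genes were higher in T-47D and 4 in LNCaP. Of 6 mesenchymal genes, 4 were higher in T-47D and 1 in LNCaP. Over all genes, 19% and 13.5% were called in these directions. The lower list held under 10 read pairs for 2 of the 8, 2 of the 4, 3 of the 4 and the 1, in that order. Such genes passed the minimum only through the list where they were high, and no test was made of these shares.

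**Figure D4:**
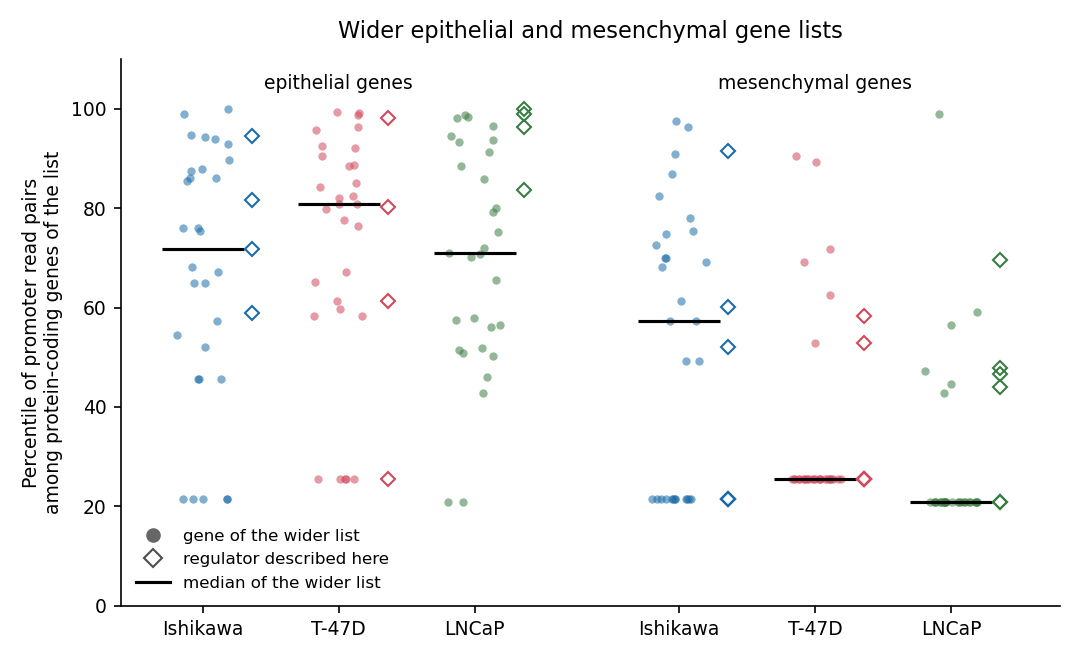
Percentile of promoter read pairs among the protein-coding genes of each list (vertical axis) for the 30 genes of each wider list (dots, bar at the median) and for the regulators described here (diamonds), in Ishikawa, T-47D and LNCaP. Genes without a loop share the lowest level of their list, where the medians of the mesenchymal genes lie in T-47D (25.4) and LNCaP (20.9).

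The genes nearest to CDH1 in the level over the 3 lists, by distance between log2 RPM with a floor of 3 read pairs and leaving out genes within 2 Mb, were APPL2 at 0.62, TBXAS1 at 0.95 and FRYL at 0.96. For ZEB1 the floor left 30 genes at the same distance of 0.00, ADH1C, AMIGO1 and ASNS first by name, so no gene was singled out. Both comparisons rest on 3 lists.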

How the data were processed

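H3K27ac HiChIP loops of Ishikawa (4 samples), T-47D (1 sample) and LNCaP (2 samples) were analysed. The authors aligned reads to hg19 with HiC-Pro, called loops with hichipper and removed loops with few reads or a high false discovery rate. The deposited value of a loop is a count of read pairs, combined over the samples of a line and not scaled for depth. The Ishikawa list consisted of 4 separately sorted blocks of rows, which no source assigns to samples. Their counts were summed, and DMSO and estradiol were not compared.

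A loop was a pair of different anchors on 1 chromosome. Promoters were windows of 500 bp on all start sites of 20163 protein-coding genes (GENCODE annotation lifted to GRCh37). Read pairs were scaled to 1000000 read pairs in loops of the list (RPM). For a ratio, a list under 3 read pairs was counted as 3, and a call needed a fold of 4 and 10 read pairs in the higher list. Intervals were exact Poisson and exact conditional 95% intervals (scipy 1.17.1, pandas 2.3.3, Python 3.11.15). The scripts were tested on simulated data. Precision was limited by list totals of 351260 to 1805322 read pairs. The 10 genes and the gene lists were chosen with earlier results of these data known. Besides the 10 members, genes were named when they were among the 3 with the most read pairs of a wider list, the leading partner promoter of a member, in a member's or microRNA's anchor, or among the 3 nearest to CDH1 or ZEB1; CDH3 and 3 line markers were named in addition, CDH3 after its value was seen. Alternatives covered loop minima, depth, span, promoter windows, start sites, Ishikawa blocks, folds, floors, scalings and overlap. Rows that join an anchor to itself were left out of all comparisons. The ZEB1 sequence was read from GRCh37, those of other promoters and anchors are not reported here, and microRNA sequences came from RefSeq.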

Additional observations from a re-analysis of the deposited data

Results flagged for a closer look

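Rows that join an anchor to itself enter no comparison above, and at the promoters of these genes some held more than 3 read pairs. In Ishikawa they held 17 read pairs at CDH1, 49 at ESRP1, 7 at GRHL2, 30 at CDH2 and 5 at ZEB2. In T-47D they held 41 at ESRP1, 220 at ESRP2 and 8 at ZEB1, so at ESRP2 they exceeded the 178 read pairs of its loops. The LNCaP list holds no such rows for any gene, and the values cannot be set against it.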

How the results depend on the processing

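No paired analysis was possible because each list pools the samples of its line. The lists kept no loop under 3 read pairs, so shallow lists lose weak contacts. T-47D, with the lowest total, limits what can be said of 0. In Ishikawa every row of the 4 blocks held 3 or more before the blocks were summed. Contacts spread thinly over the blocks are therefore lost there, and a 0 in Ishikawa is limited as well. The canonical start site and the 30 kb window were added after the data were seen.

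With loops of 5 or more read pairs, 3 of the 10 genes had a loop in T-47D, and linked distal anchors fell to 16 in Ishikawa and 4 in T-47D. Ishikawa was then called higher for 1 of 4 genes tested against T-47D and 1 of 6 against LNCaP. Over all genes 17% and 25% were called. With 10 or more, 5 genes had a loop in LNCaP and 2 in each other list, and distal anchors numbered 6 for Ishikawa, 1 for T-47D and 51 for LNCaP. The same calls were then 1 of 3 and 1 of 6, with 19.9% and 27.1% over all genes. With all lists thinned to the shallowest total, 2 genes had a loop in Ishikawa and 5 in LNCaP, with 5 and 45 distal anchors. The calls were 1 of 3 and 1 of 6, with 17.4% and 24.8% over all genes. In 4 settings Ishikawa was called higher than T-47D for 0 genes and than LNCaP for 1 gene. With spans of 20 kb to 1 Mb these were 0 of 5 and 1 of 7, with 13.6% and 21.8% over all genes. With 1 start site per gene they were 0 of 5 and 1 of 7, with 11% and 19.4%. With the canonical start site alone they were 0 of 5 and 1 of 7, with 10.3% and 18.4%. With a floor of 10 they were 0 of 6 and 1 of 8, with 4.08% and 17.6%. With a fold of 8 they were 1 of 6 and 1 of 8, with 6.5% and 19.3% over all genes. With Ishikawa loops in 2 or more blocks, which left 15 Ishikawa distal anchors, they were 1 of 4 and 1 of 7. The shares over all genes were then 17.2% and 21.3%. With 20 read pairs required, Ishikawa exceeded LNCaP for 1 of 6 genes, with 22.1% over all genes. The 30 kb window left 23 distal anchors in Ishikawa and 69 in LNCaP. It called T-47D above LNCaP for 1 of 7 genes, SNAI1, with 18.1% called over all genes. Requiring an overlap of 50% of both anchors left 0 shared anchors between Ishikawa and T-47D in either direction and 2 between Ishikawa and LNCaP in either direction. Leaving out each Ishikawa block gave 1 to 2 of 5 or 6 genes for Ishikawa above T-47D, with 14.9% to 16.7% over all genes. Leaving out the fourth block ended the GRHL2 call. Above LNCaP it gave 1 to 2 of 7 or 8 genes, with 22.2% to 24.9% over all genes. Leaving out the first or the second block ended the ZEB2 call. The cause was not tested. Of the values recomputed for these counts, 161 stayed within 1.5 times the value reported and 43 did not; of the values of single genes, 622 stayed within the counting interval and 158 did not.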
